A study of Mus musculus with 10 samples.

Results

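Chromatin accessibility was described at 34 genes of the nuclear receptor superfamily, in adipocytes made from an immortalized mouse adipocyte progenitor line called MAP. A peak belonged to a gene when its midpoint lay inside the gene's RefSeq bounds on GRCm38, or outside all protein-coding genes with that gene as the nearest within 50 kb. By this rule 381 of 122984 peaks belonged to the family, 313 inside gene bodies and 68 outside. They fell to 33 of the 34 genes, since no peak was assigned to Nr0b2, which encodes the corepressor-like receptor SHP. Of these peaks 374 passed the filter on low counts, and the other 7 were not tested. The nearest gene is a convention, and a peak may act on another gene.

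Nuclear receptors are transcription factors that bind DNA through zinc fingers, many of them switched by a small lipid-soluble ligand such as a steroid, thyroid hormone, retinoic acid, vitamin D or an oxysterol. A large group binds as a heterodimer with a retinoid X receptor (RXR), while the steroid receptors bind as pairs of the same protein, and the orphan members have no settled natural ligand. In fat cells, thyroid hormone, retinoid, glucocorticoid and estrogen-related receptors are known to act on lipid storage, mitochondrial genes and heat production.

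ATAC-seq, in which a transposase inserts sequencing adapters into open DNA, was done on 5 groups of 2 libraries: forskolin given over 4 hours, 1 day or 3 days, rosiglitazone given over 3 days, and vehicle control. Forskolin activates adenylyl cyclase and raises cAMP, and rosiglitazone activates PPARγ, a nuclear receptor outside the set described here. Cells of every group, controls too, were first differentiated with insulin at 5 mg/ml, isobutylmethylxanthine (IBMX) at 500 µM, dexamethasone at 1 µM and rosiglitazone at 1 µM for 2 days, then kept in insulin and rosiglitazone for 2 days more. Dexamethasone activates the glucocorticoid receptor, a member of the family, and IBMX slows the breakdown of cAMP, so all groups had seen both. Treatment began at day 7 to 8, and each library came from 10000 sorted nuclei with 12 cycles of amplification. The model is 1 cell line, and nothing states that libraries of 1 group are separate cultures, so p-values measure the spread between these libraries, which may be technical.

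Libraries, named S1 to S10, held 10410233 to 18935287 counts in peaks. Levels are CPM, read counts scaled to library size after TMM scaling, which sets the libraries to a common level over most peaks. A difference is a log2 fold change with its standard error (SE) from 1 edgeR fit of all 10 libraries, and a gene or peak was called where its p, adjusted by Benjamini-Hochberg over the whole table, was below 0.05. The sum of a gene's peaks was tested like a peak. Under this scaling the median gene sum of the whole table differed from control by −0.12 at 4 hours, −0.13 at 1 day, −0.10 at 3 days and −0.05 after rosiglitazone, and changes relative to these medians are given where they matter. Adipocyte marker genes (8 genes) summed to 911 to 1005 CPM in controls, 859 to 913 at 4 hours of forskolin, 794 to 802 at 1 day, then 828 to 868 at 3 days, so loci of the labelled cell type were open. At 4 hours Fabp4 was called higher and Cebpa, Lep and Lipe lower. At 1 day 6 were lower (Cebpa, Plin1, Lipe, Adipoq, Lep and Pparg), at 3 days 4 (Cebpa, Lep, Plin1 and Lipe), and none was higher. Of all genes 23.2%, 28.5% and 10.4% were lower at these 3 times, and 12.1% were higher at 4 hours. The markers' medians were −0.18, −0.30 and −0.22, where all genes had −0.12, −0.13 and −0.10. The 8 genes summed to 1086 to 1107 CPM after rosiglitazone, with Fabp4 and Cidec called higher and Cebpa lower. Their median difference was then −0.08, where all genes had −0.05, and 2.37% of all genes were called higher and 5.15% lower. Progenitor markers (7 genes) summed to 288 to 318 CPM over all libraries. Of 6 macrophage markers, Adgre1 had no peak and the others summed to 81.3 to 84.9 CPM at 4 hours and 82.7 to 84.3 after rosiglitazone, against 62.4 to 67.6 in controls. Csf1r, Cd68 and Itgam were called higher at 4 hours and Mrc1 lower, and Csf1r and Cd68 higher after rosiglitazone. The 5 endothelial markers summed to 146 to 156 CPM at 4 hours, against 122 to 129 in controls, with Kdr and Cdh5 called higher. The part of these marker changes in the results was not tested, and in bulk nuclei fewer cells with an open site cannot be told apart from less opening per cell.

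At the family's start sites the called decreases ran from −0.54 to −0.41 at 4 hours of forskolin and from −0.64 to −0.33 at 1 day. A weak inner start of Nr6a1 was called higher at 4 hours. RefSeq windows of 300 bases, 250 before to 50 after a start, were at hand for 30 of the 34 genes, and 24 peaks at 19 genes overlapped one. In controls the most open start site, per kb of peak, was that of Esrra, the estrogen-related receptor that works with PGC-1 coactivators on mitochondrial genes, at 110 and 114 CPM per kb. Nr2c2 (testicular receptor TR4) followed at 85.7 and 94.6 CPM per kb, and Rarg (retinoic acid receptor γ) at 64.3 and 70.2. Nr2f6 (52.8 and 53.7) and Rorb (54.9 and 50.8) overlapped in their 2 libraries and so had no order between them. At the low end stood one of the 3 start sites of Esrrg, with 3.87 and 4.01 CPM per kb, and an inner start of Nr6a1, with 0 and 1.22.

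Start-site sequences are shown for 4 windows where the peak was called, because they differ in the short motifs they hold. Sequences are RefSeq's on GRCm38.p6, read 5′ to 3′ on the strand of the gene, and capitals mark AGGTCA (the core that many nuclear receptors bind) or TGACG (the core of a cAMP response element, CRE), on either strand. The windows are chr2:38926412-38926711 and chr2:38784466-38784765 for Nr6a1, chr15:102257473-102257772 for Rarg, all on the minus strand, and chr6:92092183-92092482 for Nr2c2 on the plus strand.
Nr6a1, distal start: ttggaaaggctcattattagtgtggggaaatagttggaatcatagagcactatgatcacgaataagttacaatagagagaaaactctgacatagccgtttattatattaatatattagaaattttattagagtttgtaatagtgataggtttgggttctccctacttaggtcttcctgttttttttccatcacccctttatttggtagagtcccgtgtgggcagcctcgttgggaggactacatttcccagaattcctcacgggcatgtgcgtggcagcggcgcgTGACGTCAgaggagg
Nr6a1, inner start: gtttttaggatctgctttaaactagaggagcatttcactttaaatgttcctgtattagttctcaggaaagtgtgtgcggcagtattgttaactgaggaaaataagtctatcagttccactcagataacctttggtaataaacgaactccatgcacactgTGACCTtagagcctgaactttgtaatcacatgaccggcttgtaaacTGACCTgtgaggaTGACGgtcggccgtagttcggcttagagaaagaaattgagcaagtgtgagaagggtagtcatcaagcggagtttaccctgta
Rarg: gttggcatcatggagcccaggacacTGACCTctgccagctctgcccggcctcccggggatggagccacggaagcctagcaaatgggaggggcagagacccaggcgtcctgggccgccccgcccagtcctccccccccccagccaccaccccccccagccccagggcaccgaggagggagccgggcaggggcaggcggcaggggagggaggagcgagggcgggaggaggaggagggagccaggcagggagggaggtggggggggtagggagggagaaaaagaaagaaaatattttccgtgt
Nr2c2: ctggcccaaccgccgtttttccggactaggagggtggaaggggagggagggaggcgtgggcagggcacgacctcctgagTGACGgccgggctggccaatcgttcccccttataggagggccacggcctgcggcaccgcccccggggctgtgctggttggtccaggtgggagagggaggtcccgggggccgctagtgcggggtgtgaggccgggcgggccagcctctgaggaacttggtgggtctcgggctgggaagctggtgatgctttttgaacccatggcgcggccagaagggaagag

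In the distal Nr6a1 window the capitals spell TGACGTCA, a full CRE that begins at position 36 downstream, counting the first base of the gene as 1. This motif, in which 2 overlapping TGACG matches on opposite strands share bases, was in 1.79% of all 32851 windows and in 1 of the 27 windows under member peaks. The inner Nr6a1 window holds AGGTCA on the other strand 91 and 45 bases before the start and TGACG 32 bases before it. AGGTCA was in 3 of 27 member windows and in 16.3% of all windows, and TGACG in 7 of 27 and 20.8%. AGAACA, a core of steroid receptor sites, was in none of the 27 and in 19.0% of all, which says only that those letters were not in these windows. GGGCGG was in 13 of 27 and in 35.7% of all, and the 27 windows had a median of 61.3% G and C, against 52.7% over all windows. The 27 were taken for lying under a peak and the reference windows were not, so these shares do not describe the family alone. Some of the 27 also overlap one another, as those of Rara do.

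At 4 hours 1 of the 24 start-site peaks was higher and 7 were lower than in controls, where 29.7% of all start-site peaks were called, 1.88% higher and 27.8% lower. At 1 day none was higher and 9 were lower, where 39.6% of all start-site peaks were called, 1.36% higher and 38.3% lower. With unadjusted p below 0.05 there was 1 higher at 1 day, and DESeq2 called none. Under TMM scaling the members' share was thus near that of start sites in general. Their median difference was −0.22 at 4 hours and −0.32 at 1 day, where all start-site peaks had −0.24 and −0.29. Without control library S2 fewer members were called lower. Their median was then −0.19 at 4 hours and −0.29 at 1 day, where all start-site peaks had −0.20 and −0.25. Trended offsets are a scaling that lets the offset vary with the level of a peak. Under them 6 members were lower at 4 hours and 4 at 1 day. These were 25% and 16.7% of the members, where 10.9% and 11.1% of all start-site peaks were lower. Under that scaling the members' share was thus above that of all start sites. The 7 at 4 hours were Rara, both Rarg start sites, Nr2c2, Nr2f1, Nr2f6 and the distal Nr6a1 start, and Esrra and Esr1 were lower at 1 day. Nr2c2 had 128 and 142 CPM in controls, 96.8 and 99.9 at 4 hours, 79.6 and 93.0 at 1 day, then 98.2 and 120 at 3 days, so both early times lay below the controls. Its difference from control was −0.46 ± 0.12 (SE) at 4 hours (adjusted p = 0.00143; lost without S2, at 0.0566, and under trended offsets, at 0.236) and −0.64 ± 0.12 at 1 day (adjusted p = 1.70e-05). Esrra had 106 and 109 CPM in controls, 94.9 and 89.4 at 4 hours, 67.3 and 78.8 at 1 day, then 82.0 and 106 at 3 days. Its low point was at 1 day (−0.56 ± 0.12, adjusted p = 2.30e-04), where trended offsets gave an adjusted p of 0.205.

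At 3 days of forskolin none of the 24 start-site peaks was called, where 9.13% of all start-site peaks were, 0.926% higher and 8.2% lower, and this count rested on 1 library. With unadjusted p below 0.05, 1 was higher and 3 were lower, and DESeq2 called none. Library S8 was above its partner S7 at 23 of the 24 start-site peaks, and the 24 summed to 899 CPM in S8 and 735 in S7, against 892 and 955 in controls. Without S8, 6 of the 24 were lower than control, where 30.1% of all start-site peaks were, and without S7 none was called. At the other 350 tested member peaks S7 and S8 summed to 1620 and 1591 CPM. After rosiglitazone 2 start-site peaks were lower, both of Rarg, where 4.82% of all start-site peaks were called, 0.765% higher and 4.06% lower. Without S2 neither was called.

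**Figure D1:**
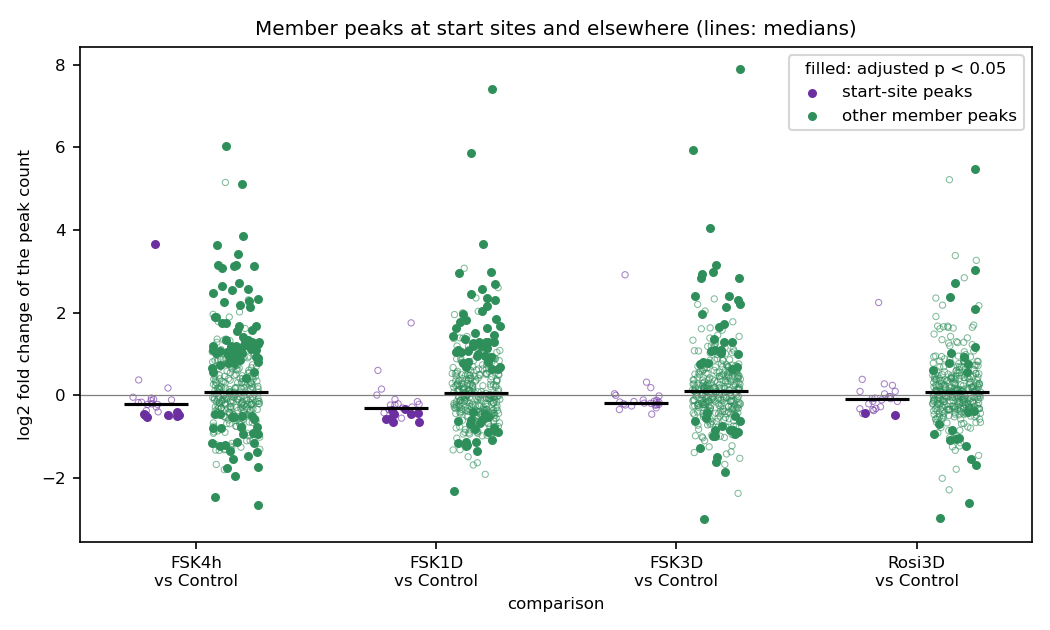
Log2 fold change of each tested member peak (y axis) in the 4 comparisons with control (x axis), split into 24 start-site peaks and 350 other peaks. Points are peaks, filled where the adjusted p was below 0.05, and lines are medians. Below 0 lay 21 of the 24 start-site peaks at 4 hours and 20 at 1 day, near the share of start sites in general. Of all 9937 tested start-site peaks, 8540 lay below 0 at 4 hours and 8507 at 1 day. The inner Nr6a1 start was the highest of the 24 at both times, while other peaks spread both ways.

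The 1 start-site peak that was higher at 4 hours was the inner Nr6a1 start at chr2:38784470-38784604. It had 0 and 0.165 CPM in controls, 1.25 and 1.21 at 4 hours, 0.447 and 0.204 at 1 day, then 0.472 and 1.03 at 3 days. With 39 counts at 4 hours and 2 in controls, the ratio of scaled counts was 13.5 (exact 95% interval 3.50 to 115, for counting error only). Its adjusted p was 0.00347, and 0.0565 without S1. The distal Nr6a1 start, which has the CRE, was lower at the same time: 41.3 and 48.9 CPM in controls, 30.8 and 33.9 at 4 hours (−0.48 ± 0.12, adjusted p = 0.00232; lost without S2 or S3, at 0.0663 and 0.117).

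Over all tested member peaks, 66 of 374 were higher and 35 lower at 4 hours of forskolin (27.0% called, where 31.4% of all 118954 tested peaks were, 18.5% higher and 12.9% lower). At 1 day 47 were higher and 30 lower (20.6%, where 22.8% of all were, 12.9% higher and 9.84% lower). At 3 days the counts were 29 and 18 (12.6%, where 13.8% of all were, 8.49% higher and 5.34% lower). After rosiglitazone 12 were higher and 15 lower, or 7.22%, where 6.57% of all were, 3.22% higher and 3.35% lower. The family was therefore called about as often as other peaks, and its gene sums, which pool peaks and have a smaller error, are described next by role. Of 33 sums, 14 were called at 4 hours (6 higher, 8 lower), where 35.3% of all 17080 tested genes were, 12.1% higher and 23.2% lower. The counts were 5 higher and 10 lower at 1 day (37.8% of all genes called, 9.34% higher and 28.5% lower) and 5 and 6 at 3 days (15.6%, 5.23% and 10.4%). When the 3-day and control libraries were fitted alone, 2 of the 11 sums were called at 3 days, those of Thra and Nr5a1. Rosiglitazone gave 1 higher and 5 lower (7.52% of all genes called, 2.37% higher and 5.15% lower).

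**Figure D2:**
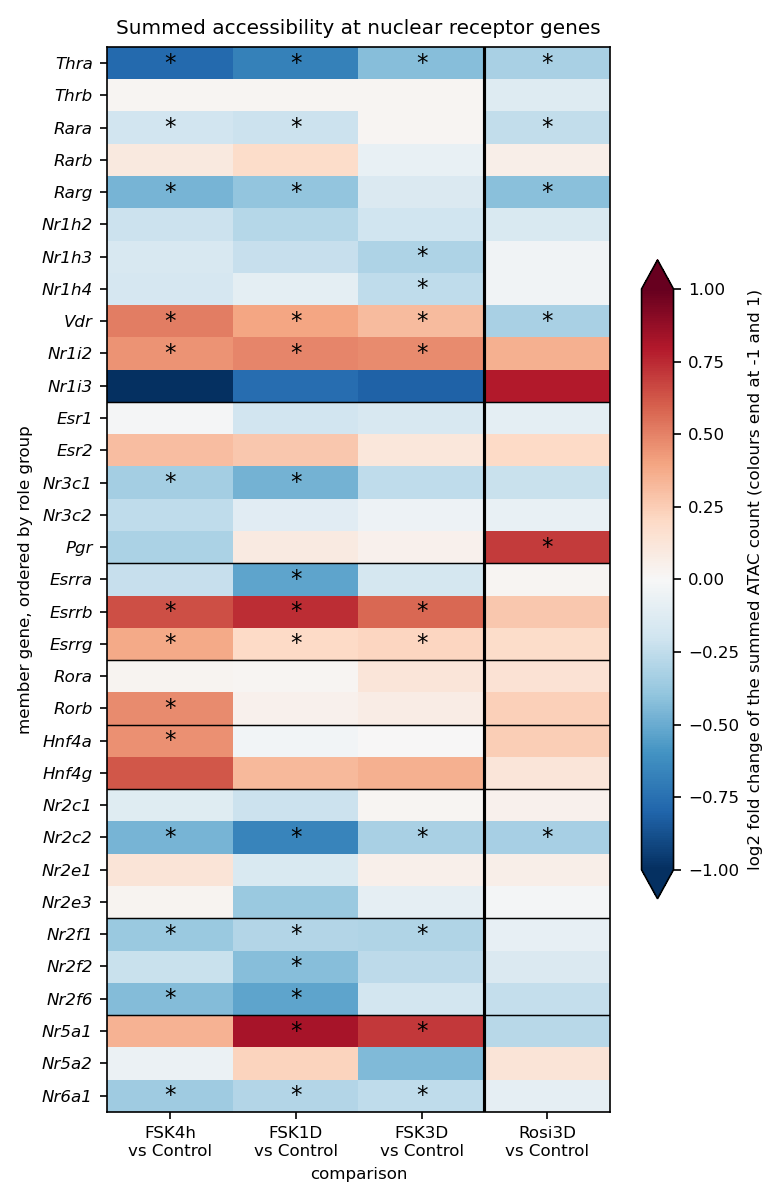
Log2 fold change against control of the summed counts of 33 member genes (rows, in blocks of role groups as in the text) at 3 forskolin times and after rosiglitazone (columns). Colour gives the size, ending at −1 and 1, and stars mark adjusted p below 0.05. Thra and Nr2c2 are lower in all 4 columns, while Vdr is higher with forskolin and lower after rosiglitazone.

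Among the receptors that pair with RXR, the sum of the thyroid hormone receptor gene Thra was lower and that of the vitamin D receptor gene Vdr higher at all 3 forskolin times. Thra (chr11:98740776-98769006) encodes TRα. Its 12 peaks summed to 109 and 118 CPM in controls, 62.2 and 70.4 at 4 hours, 67.5 and 74.9 at 1 day, then 83.6 and 85.7 at 3 days. All 6 forskolin libraries lay below both controls. The difference from control was −0.78 ± 0.09 at 4 hours (adjusted p = 1.41e-06), −0.67 ± 0.09 at 1 day (1.80e-05) and −0.42 ± 0.09 at 3 days (0.00307; 0.0747 without S2). Relative to the median gene it was −0.65, −0.54 and −0.33. Against 4 hours, the sum at 3 days was higher by 0.35 ± 0.09 (adjusted p = 0.0140; 0.264 without S3). After rosiglitazone Thra had 86.7 and 94.4 CPM, against the control values above, a difference of −0.33 ± 0.09 (adjusted p = 0.0248) that was lost without S1, S2, S9 or S10 (0.0574 to 0.278) and with library size alone.

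Most of the Thra change came from 1 peak inside the gene, at chr11:98750489-98751549. It had 46.9 and 53.9 CPM in controls, 14.1 and 15.9 at 4 hours, 21.2 and 24.8 at 1 day, then 28.4 and 27.6 at 3 days. No forskolin library reached the controls, and the 3 times did not overlap one another. The differences were −1.75 ± 0.13 (adjusted p = 2.39e-18), −1.14 ± 0.13 (5.17e-11) and −0.85 ± 0.13 (4.94e-07), and 3 days was above 4 hours by 0.90 ± 0.13 (1.02e-06). Rosiglitazone libraries had 31.1 and 31.4 CPM there, also below both controls. The sister gene Thrb, for TRβ, had sums of 112 and 123 CPM in controls and 106 to 126 CPM in the treated libraries, and was called in no comparison with control. Single Thrb peaks were called: one at chr14:17675131-17675765 had 3.65 and 3.21 CPM after rosiglitazone, against 7.87 and 6.61 in controls (−1.07 ± 0.24, adjusted p = 0.00151). At 4 hours of forskolin the same peak had 13.1 and 12.9 CPM, and at 3 days it was lower than at 4 hours (−0.89 ± 0.19, adjusted p = 7.63e-04; 0.0962 without S8).

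Vdr (chr15:97854427-97908296) encodes the receptor for active vitamin D. Its sum was 128 and 134 CPM in controls, 189 and 184 at 4 hours, 164 and 179 at 1 day, then 162 and 164 at 3 days, above both controls in all 6 forskolin libraries. The differences were 0.51 ± 0.07 (adjusted p = 5.86e-06), 0.39 ± 0.07 (2.03e-04) and 0.32 ± 0.07 (0.00354), or 0.64, 0.53 and 0.41 relative to the median gene. With rosiglitazone it had 107 and 101 CPM, below both controls (−0.33 ± 0.07, adjusted p = 0.00511; lost without S2 or S10, at 0.0695 and 0.0895). The start site was not called, with 47.3 and 47.8 CPM at 4 hours, against 49.97 in each control. With start-site peaks alone, the 4-hour and 1-day differences were −0.07 and −0.16.

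The largest Vdr signal was a peak 6.09 kb upstream of the start, at chr15:97913918-97914863, which was picked out after its values were seen. It had 51.4 and 54.5 CPM in controls, 108 and 98.8 at 4 hours, 88.7 and 97.5 at 1 day, then 87.3 and 75.5 at 3 days. Every forskolin library was above every control there, with differences of 0.96 ± 0.12 (adjusted p = 4.34e-10), 0.81 ± 0.12 (1.40e-07) and 0.62 ± 0.12 (8.14e-05). A weaker peak inside the gene, 36.0 kb from the start at chr15:97872113-97872469, rose by 1.33 ± 0.36 at 4 hours (adjusted p = 0.00260) and 1.30 ± 0.36 at 3 days (0.00814). Neither call stood without S2 (0.143 and 0.248), and that at 3 days was also lost without S7 (0.293). Another, just past the other end of the gene at chr15:97853945-97854298, rose by 1.28 ± 0.34 at 1 day (adjusted p = 0.00353).

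The retinoic acid receptor genes Rara and Rarg were lower early. The Rarg sum was mostly start-site signal, so it is not a second result beside its start-site peaks. Rarg had 200 and 213 CPM in controls, 147 and 151 at 4 hours, 147 and 167 at 1 day, then 175 and 199 at 3 days, so the groups separated at 4 hours and 1 day. The differences were −0.47 ± 0.07 (adjusted p = 7.19e-05) and −0.39 ± 0.07 (4.57e-04), and that at 3 days was not called (−0.15). After rosiglitazone Rarg had 148 and 162 CPM (−0.42 ± 0.07, adjusted p = 0.00160; lost without S2 or S9, at 0.0517 and 0.0687). Relative to the median gene, Rarg was −0.34 at 4 hours, −0.26 at 1 day and −0.36 after rosiglitazone. Rara differed by −0.19 ± 0.06 at 4 hours (adjusted p = 0.0184), −0.22 ± 0.06 at 1 day (0.00719) and −0.25 ± 0.06 after rosiglitazone (0.0138). Relative to the median gene these were −0.07, −0.08 and −0.19, and all 3 calls were lost with library size alone, under trended offsets and without S2. They were also lost without S3 or S4 at 4 hours, S5 at 1 day and S9 or S10 after rosiglitazone (0.0583 to 0.187 over all fits that left out 1 library and lost the call). Rarb was not called as a sum. Its peak at chr14:16510611-16510928, 64.7 kb inside the gene, had 2.32 and 2.56 CPM in controls, 6.84 and 5.07 at 4 hours, 6.15 and 4.63 at 1 day, then 3.30 and 3.32 at 3 days. It was higher by 1.28 ± 0.29 at 4 hours (adjusted p = 3.75e-04). Another, upstream of that start at chr14:16684945-16685381 and still within the gene's bounds, was higher by 1.36 ± 0.31 at 1 day (adjusted p = 7.04e-04).

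Of the sterol, bile acid and xenobiotic receptors, the Nr1i2 sum was higher with forskolin at all 3 times. Nr1i2 encodes PXR, a xenobiotic sensor best known in liver. Its 8 peaks summed to 15.3 and 20.5 CPM in controls, 25.4 and 23.8 at 4 hours, 26.4 and 24.2 at 1 day, then 25.2 and 24.8 at 3 days, without overlap. The differences were 0.45 ± 0.15 (adjusted p = 0.0263), 0.49 ± 0.15 (0.0146) and 0.47 ± 0.15 (0.0389). The calls were lost without S1 at each time, and also without S3 or S4 at 4 hours, without S5 at 1 day and without any of S2 to S7 at 3 days (0.0522 to 0.283 over all). DESeq2 did not call the 3-day difference. An Nr1i2 peak 12.2 kb inside the gene, at chr16:38282041-38283151, had 7.78 CPM in each rosiglitazone library, against 2.83 and 4.05 in controls (1.16 ± 0.26, adjusted p = 0.00157; 0.0659 without S1). Forskolin libraries had 3.02 to 5.37 CPM there.

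Nr1h4, for the bile acid receptor FXR, moved in opposite ways at 2 of its peaks. The one at chr10:89531231-89531700, 24.8 kb upstream of the nearest start but within the gene's bounds, had 15.5 and 14.4 CPM in controls, 4.08 and 4.65 at 4 hours, 7.26 and 8.71 at 1 day, then 8.20 and 6.65 at 3 days. All 6 forskolin libraries were below the controls, by −1.77 ± 0.20 (adjusted p = 1.38e-11), −0.90 ± 0.18 (8.59e-05) and −0.997 ± 0.18 (4.68e-05). The other, at chr10:89465046-89465547, had 4.14 and 3.80 CPM in controls, 8.61 and 8.27 at 4 hours, 8.27 and 6.98 at 1 day, then 4.90 and 5.30 at 3 days. It was higher by 1.09 ± 0.24 at 4 hours (adjusted p = 2.21e-04). After rosiglitazone it was lower than control (−0.95 ± 0.29, adjusted p = 0.0289). That call was lost with library size alone, with DESeq2 and in a fit of the 2 groups alone. At 3 days it was higher with forskolin than with rosiglitazone (1.31 ± 0.27, adjusted p = 1.07e-04). The Nr1h4 sum was called at 3 days alone (−0.26 ± 0.09, adjusted p = 0.0462), and so was Nr1h3, for LXRα (−0.31 ± 0.10, 0.0367). Both calls were lost with library size alone, under trended offsets and in 9 and 6 of the 10 fits that left out 1 library (0.0604 to 0.311 and 0.0539 to 0.189). Nr1h2 (LXRβ) was not called, nor was Nr1i3 (CAR), whose single peak had 0.131 to 1.36 CPM over all libraries.

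**Figure D3:**
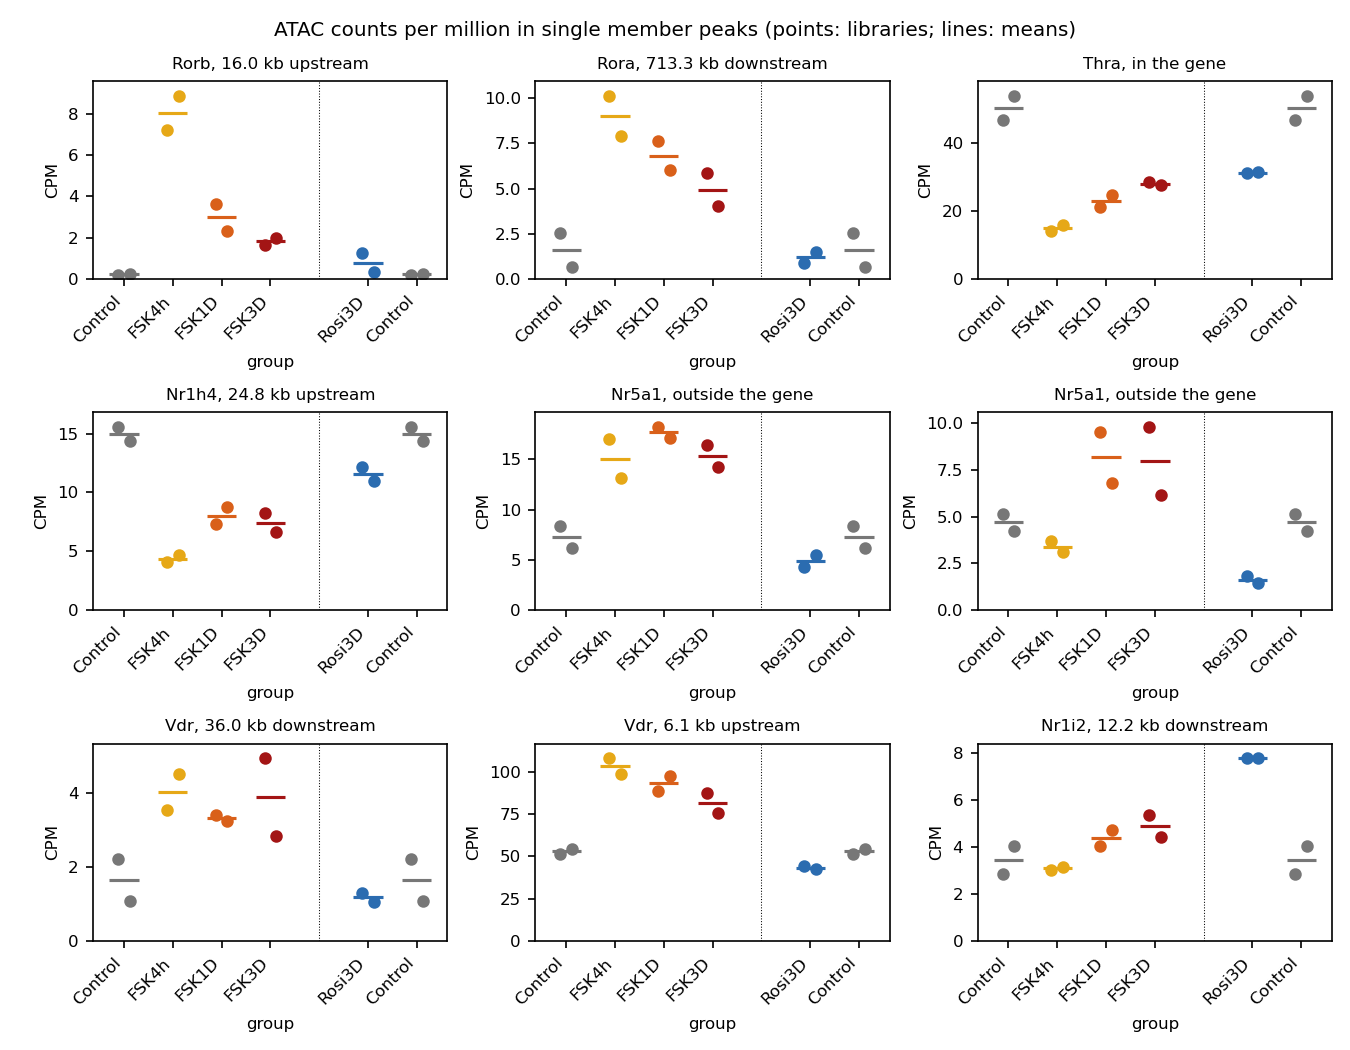
CPM of 9 member peaks by group, with the forskolin series and its control on the left of each panel and rosiglitazone with its control on the right. Points are libraries and lines are means of 2. Rorb and Rora peaks are highest at 4 hours. After rosiglitazone both Rorb libraries lie above the controls, and the Rora libraries lie between them. The Thra peak is below control in every treated library, and an Nr5a1 peak has 1.79 and 1.42 CPM after rosiglitazone, under the 5.15 and 4.21 of controls.

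The steroid hormone receptors changed in few sums. Nr3c1 encodes the glucocorticoid receptor, the target of the dexamethasone used to differentiate all groups. Its sum was 125 and 155 CPM in controls, 101 and 121 at 4 hours, 95.9 and 106 at 1 day, then 102 and 134 at 3 days. The differences were −0.34 ± 0.12 at 4 hours (adjusted p = 0.0427) and −0.47 ± 0.12 at 1 day (0.00709). The 4-hour call was lost with library size alone, under trended offsets and with DESeq2. Leaving out S2 ended both calls, as did S3 at 4 hours and S5 at 1 day (0.0734 to 0.427). A peak inside Nr3c1, at chr18:39483622-39484064, went the other way: 2.12 and 3.22 CPM in controls, 5.65 and 6.04 at 4 hours, 5.92 and 4.48 at 1 day, then 2.71 and 2.14 at 3 days. It was higher at 4 hours (1.11 ± 0.29, adjusted p = 0.00199) and lower at 3 days than at 4 hours (−1.25 ± 0.28, 0.00112).

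Pgr, for the progesterone receptor, was the only member sum higher after rosiglitazone in the fit of all libraries. It had 24.6 and 21.8 CPM there, against 14.1 and 14.4 in controls, with no overlap (0.70 ± 0.16, adjusted p = 0.00839; lost without S1, S2 or S9, at 0.0686 to 0.133). Forskolin libraries had 10.3 to 16.9 CPM. A Pgr peak at chr9:8937525-8938166, 38.0 kb inside the gene, had 7.71 and 8.02 CPM after rosiglitazone, against 4.44 and 3.88 in controls (0.92 ± 0.26, adjusted p = 0.0170; lost without S1, S2, S9 or S10, at 0.0593 to 0.156, and with DESeq2). Esr1, for estrogen receptor α, was not called as a sum, with 117 and 118 CPM in controls and 98.4 to 117 CPM in treated libraries. Of its 35 tested peaks 7 were higher and 3 lower at 4 hours, or 20% and 8.57%, near the 18.5% and 12.9% of all peaks. The peak at chr10:4776761-4777081 was open briefly: 2.83 and 2.64 CPM in controls, 8.81 and 5.80 at 4 hours, 2.40 and 3.11 at 1 day, then 2.30 and 2.53 at 3 days. It was higher at 4 hours (1.41 ± 0.29, adjusted p = 8.18e-05) and lower at 3 days than at 4 hours (−1.59 ± 0.28, adjusted p = 3.34e-05). Another Esr1 peak, at chr10:4954998-4955463, was higher at 3 days of forskolin (1.35 ± 0.29, adjusted p = 5.87e-04; 0.0890 without S7) and after rosiglitazone (1.02 ± 0.30, 0.0235; lost without S2, S9 or S10, at 0.0779 to 0.255, and with DESeq2). At chr10:4617857-4618377 rosiglitazone libraries had 3.99 and 4.38 CPM, against 10.4 and 7.68 in controls (−1.10 ± 0.22, adjusted p = 5.53e-04; 0.0504 without S1). Esr2 and Nr3c2, for estrogen receptor β and the mineralocorticoid receptor, were called in no comparison with control.

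The estrogen-related receptors, orphan regulators of mitochondrial and fatty acid oxidation genes, split. Esrrb and Esrrg were higher with forskolin and Esrra was lower at 1 day. Esrrb had 8.08 and 7.93 CPM in controls, 12.4 and 12.6 at 4 hours, 13.1 and 13.5 at 1 day, then 9.73 and 14.4 at 3 days, all above the controls. The differences were 0.64 ± 0.18 (adjusted p = 0.0102; lost without S2 or S3, at 0.0505 and 0.0816), 0.74 ± 0.18 (0.00335) and 0.57 ± 0.19 (0.0398; lost in 8 of the 10 fits that left out 1 library, at 0.0508 to 0.311, and with DESeq2). Esrrg had 99.8 and 99.6 CPM in controls, 133 and 127 at 4 hours, 116 and 113 at 1 day, then 113 and 118 at 3 days, again without overlap. It was higher by 0.38 ± 0.07 (adjusted p = 3.58e-04), 0.20 ± 0.07 (0.0291) and 0.21 ± 0.07 (0.0445). The 1-day call was lost without S1, S2, S5 or S6 (0.0742 to 0.153) and the 3-day call in 9 of 10 such fits (0.0506 to 0.193), and DESeq2 made neither call. At the 3 start-site peaks of Esrrg alone the direction was the opposite, −0.29 at 4 hours, −0.26 at 1 day, then −0.17 at 3 days, with none of these called. Esrra, whose sum is nearly all start-site signal, differed by −0.53 ± 0.10 at 1 day (adjusted p = 4.07e-04) and −0.39 relative to the median gene. A small Esrra peak 1.26 kb inside the gene, at chr19:6920447-6920644, had 8.95 and 10.1 CPM after rosiglitazone, against 4.54 and 6.52 in controls (0.77 ± 0.22, adjusted p = 0.0211; lost without S1, S9 or S10, at 0.0635 to 0.264, and with DESeq2).

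A Rorb peak that was almost closed in controls was more open at all 3 forskolin times. RORα and RORβ bind DNA alone and are known for roles in the circadian clock and development. The Rorb peak at chr19:19016721-19017514, 16 kb upstream of the nearest start window and within the gene's bounds, had 0.202 and 0.248 CPM in controls. It had 7.23 and 8.87 CPM at 4 hours, 3.63 and 2.34 at 1 day, then 1.65 and 1.98 at 3 days. The 3 times and the controls did not overlap, and the order was a high at 4 hours and a decline after it. The differences from control were 5.10 ± 0.49 (adjusted p = 6.69e-14), 3.66 ± 0.55 (2.76e-07) and 2.94 ± 0.60 (2.25e-04), and 3 days was lower than 4 hours (−2.16 ± 0.32, adjusted p = 1.10e-06). With 257 counts at 4 hours and 5 in controls, the ratio of scaled counts was 35.6 (exact 95% interval 15.1 to 111, for counting error only). Rosiglitazone libraries had 1.24 and 0.309 CPM. The mean over all 10 libraries, 2.77 CPM, was just above the 2.72 CPM asked of a named peak, and only the 4-hour libraries and 1 library of 1 day were above that level.

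Of 20 tested Rorb peaks, 9 were higher and 1 was lower at 4 hours, where 18.5% of all peaks were called higher and 12.9% lower. The lower one, at chr19:19058746-19059164, had 3.53 and 3.88 CPM in controls, 1.58 and 1.27 at 4 hours, 1.73 and 1.43 at 1 day, then 2.54 and 2.37 at 3 days (−1.38 ± 0.34 at 4 hours, adjusted p = 0.00112). The Rorb sum was 87.7 and 90.4 CPM in controls, 127 and 121 at 4 hours, 94.2 and 89.7 at 1 day, then 89.7 and 98.6 at 3 days. It was higher at 4 hours alone (0.48 ± 0.08, adjusted p = 8.36e-05) and lower at 3 days than at 4 hours (−0.40 ± 0.08, 0.00159; 0.0581 without S3). The Rorb start site, with 41.0 and 39.8 CPM at 4 hours against 46.0 and 42.6 in controls, was not called.

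Rora spans chr9:68653404-69388246 and had 61 peaks, the most of any member. Of 59 tested, 13 were higher and 6 lower at 4 hours, 7 and 4 at 1 day, then 8 and 2 at 3 days. At 4 hours these were 22.0% and 10.2%, near the 18.5% and 12.9% of all peaks, and the shares of all peaks were 12.9% and 9.84% at 1 day and 8.49% and 5.34% at 3 days. The sum did not pass the test, at 197 and 210 CPM in controls and 202 to 233 CPM in treated libraries. Near its far end, 713 kb from the start at chr9:69366743-69367385, a peak had 2.52 and 0.661 CPM in controls, 10.1 and 7.91 at 4 hours, 7.66 and 6.01 at 1 day, then 5.84 and 4.04 at 3 days. Control and rosiglitazone libraries lay below the 2.72 CPM asked of a named peak, so it was named through its forskolin libraries. All forskolin libraries were above the controls, by 2.56 ± 0.32 (adjusted p = 6.94e-10), 2.16 ± 0.32 (3.12e-07) and 1.71 ± 0.34 (1.42e-04; 0.0922 without S2). At chr9:69092102-69092679, 439 kb from the start, the change was the reverse: 10.5 and 14.2 CPM in controls and 4.73 and 4.23 at 4 hours (−1.47 ± 0.20, adjusted p = 1.32e-08). The peak at chr9:69181202-69181862 was also lower, at 1 day (−1.35 ± 0.30, adjusted p = 4.72e-04), and that at chr9:69043995-69044962 at 3 days (−0.90 ± 0.28, 0.0190; lost without S1 or S8, at 0.188 and 0.242, and with DESeq2).

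**Figure D4:**
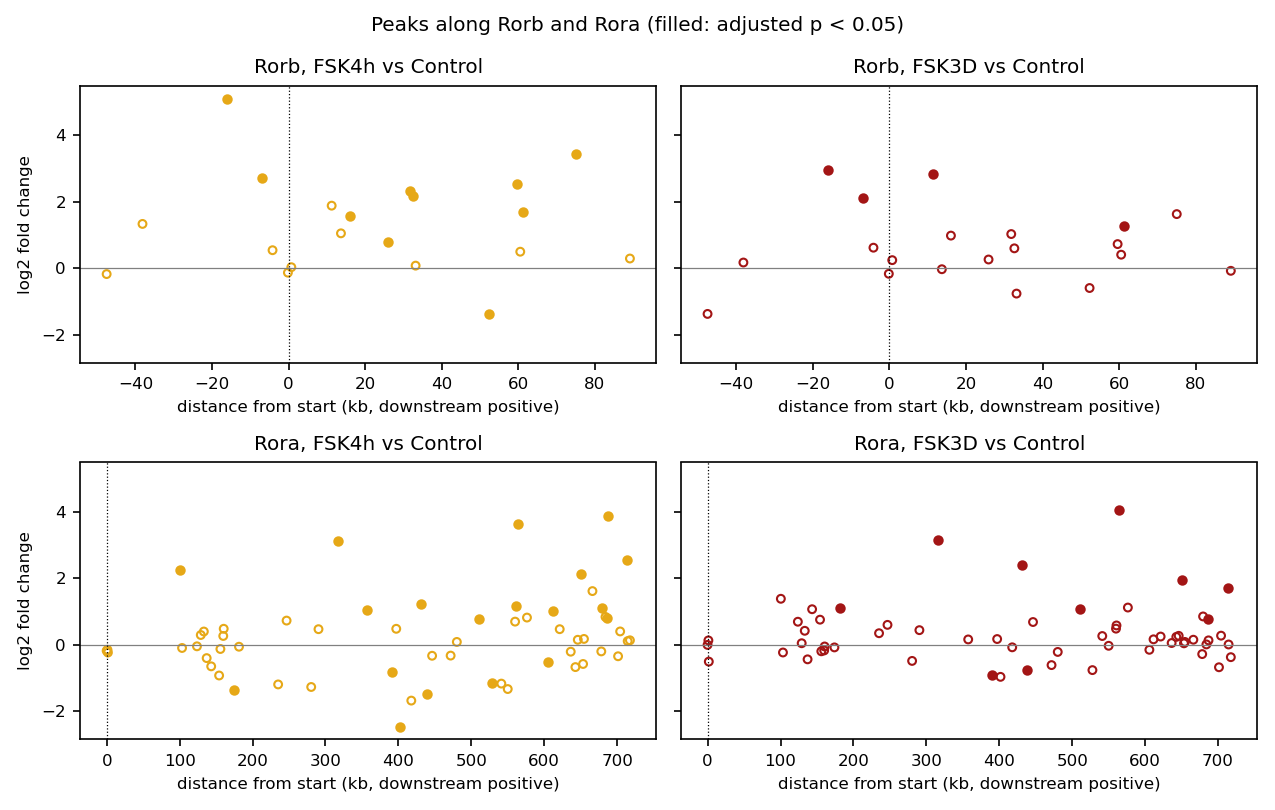
Log2 fold change of the tested peaks of Rorb (top) and Rora (bottom) at 4 hours (left) and 3 days (right) of forskolin against control, by distance from the nearest RefSeq start in kb (downstream positive). Filled points have an adjusted p below 0.05. Most called Rorb peaks lie above 0 at 4 hours and fewer are called at 3 days, while Rora has called peaks on both sides of 0.

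Among the HNF4 receptors, known from liver and gut, the Hnf4a sum was higher at 4 hours. It had 21.3 and 27.2 CPM in controls and 34.1 and 32.8 at 4 hours, and 23.0 to 25.7 CPM in the later forskolin libraries. The difference was 0.46 ± 0.12 at 4 hours (adjusted p = 0.00572; lost without S1 or S3, at 0.0524 and 0.0974) and −0.45 ± 0.12 for 3 days against 4 hours (0.0156; lost without S3, S4 or S8, at 0.0672 to 0.148). When peaks could also be assigned to non-coding genes these were −0.02 and 0.13, and neither was called. Hnf4g had 2.10 to 4.17 CPM over all libraries and was not called.

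The COUP-TF genes and the testicular receptor gene Nr2c2 were lower with forskolin. COUP-TFs often repress, and COUP-TFII (Nr2f2) is known as a regulator of adipocyte differentiation in mice. The Nr2c2 sum was nearly all start-site signal, so it is not a second result beside that peak. Relative to the median gene it was −0.35 at 4 hours, −0.53 at 1 day and −0.23 at 3 days. Nr2c2, described above at its start site, differed as a sum by −0.47 ± 0.09 at 4 hours (adjusted p = 6.60e-04), −0.66 ± 0.09 at 1 day (3.80e-05) and −0.32 ± 0.09 at 3 days (0.0233; lost without S2, S7 or S9, at 0.0610 to 0.236). After rosiglitazone it had 106 and 112 CPM, against 131 and 143 in controls (−0.34 ± 0.09, adjusted p = 0.0301; lost in 6 of 10 fits without 1 library, at 0.0526 to 0.291). Nr2f1 had 86.0 and 83.8 CPM in controls, 65.1 and 66.3 at 4 hours, 68.3 and 70.0 at 1 day, then 66.3 and 71.5 at 3 days, all below the controls. The differences were −0.37 ± 0.08 (adjusted p = 0.00169), −0.30 ± 0.08 (0.00736; 0.0709 without S5) and −0.30 ± 0.08 (0.0170; lost without S1, S2 or S7, at 0.0837 to 0.0939), and −0.25, −0.16 and −0.21 relative to the median gene. With library size alone and under trended offsets the calls at 1 day and 3 days were lost, and with non-coding genes in the assignment all 3 were. Nr2f6, for EAR2, was lower at 4 hours (−0.44 ± 0.13, adjusted p = 0.0133; lost without S1, S2 or S3, at 0.0572 to 0.119) and at 1 day (−0.53 ± 0.13, 0.00389; 0.0645 without S5). The Nr2f6 sum was mostly start-site signal, and so not a second result beside its start-site peak. Relative to the median gene, it was −0.31 at 4 hours and −0.39 at 1 day. Its 3-day libraries were far apart, with 58.9 CPM in S7 and 82.1 in S8. Nr2f2 was lower at 1 day (−0.43 ± 0.09, adjusted p = 0.00140), with 64.6 and 65.0 CPM, against 84.8 and 89.5 in controls. Nr2c1, Nr2e1 and Nr2e3 were not called as sums.

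In the last group, Nr5a1 gained with forskolin and Nr6a1 fell. Nr5a1 encodes SF-1, the regulator of steroid-making genes in gonad and adrenal. Its 7 peaks, 6 of them outside the gene at chr2:38692656-38714542, summed to 25.3 and 28.0 CPM in controls, 35.8 and 32.4 at 4 hours, 49.5 and 45.5 at 1 day, then 50.6 and 36.0 at 3 days. All forskolin libraries were above the controls. The difference was 0.83 ± 0.13 at 1 day (adjusted p = 1.27e-04) and 0.71 ± 0.14 at 3 days (0.00188), and that at 4 hours did not pass (0.35, adjusted p = 0.051). A peak 2.56 kb outside the gene, at chr2:38689815-38690378, had 8.38 and 6.19 CPM in controls, 17.0 and 13.1 at 4 hours, 18.2 and 17.2 at 1 day, then 16.4 and 14.2 at 3 days. It was higher at each time, by 1.06 ± 0.18 (adjusted p = 2.59e-06), 1.29 ± 0.18 (3.02e-08) and 1.09 ± 0.18 (6.22e-06). The next peak out, at chr2:38682211-38682636, had 5.15 and 4.21 CPM in controls, 3.68 and 3.08 at 4 hours, 9.56 and 6.77 at 1 day, then 9.79 and 6.17 at 3 days. It was the most reduced member peak named for rosiglitazone, with 1.79 and 1.42 CPM (−1.54 ± 0.31, adjusted p = 4.09e-04).

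Nr6a1 encodes GCNF, a repressor of pluripotency genes in germ cells and embryos. Its sum was 87.5 and 90.4 CPM in controls, 69.4 and 69.5 at 4 hours, 74.7 and 70.4 at 1 day, then 72.6 and 77.1 at 3 days. The differences were −0.36 ± 0.08 (adjusted p = 0.00204), −0.30 ± 0.08 (0.00696; lost without S2 or S6, at 0.0691 and 0.0739) and −0.25 ± 0.08 (0.0396; lost in 9 of 10 fits without 1 library, at 0.0544 to 0.220). The later 2 calls were also lost with library size alone and under trended offsets. A peak between its starts, at chr2:38823038-38823544, had 9.39 and 8.09 CPM in controls, 3.55 and 3.86 at 4 hours, 7.43 and 5.30 at 1 day, then 4.54 and 4.27 at 3 days (−1.23 ± 0.23 at 4 hours, adjusted p = 1.53e-05). Rosiglitazone libraries had 9.57 CPM each. Nr5a2, for LRH-1, was not called as a sum.

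Forskolin and rosiglitazone at 3 days, the matched time, were then compared directly. Of the 374 peaks, 37 were higher and 35 lower with forskolin than with rosiglitazone (19.3%, where 21.7% of all peaks were called, 12.9% higher and 8.82% lower), and of the 33 sums 4 were higher and 1 lower (16.8% of all genes called, 8.4% in each direction). These comparisons share the rosiglitazone libraries with those above. Nr5a1 had 50.6 and 36.0 CPM with forskolin, against 20.1 and 23.8 with rosiglitazone (0.99 ± 0.13, adjusted p = 2.78e-05), and its outer peak differed by 2.33 ± 0.28 (3.77e-10). The Nr5a1 sum was not called with non-coding genes in the assignment (adjusted p = 0.412). Vdr had 162 and 164 CPM with forskolin, against 107 and 101 with rosiglitazone (0.64 ± 0.07, adjusted p = 9.06e-07), and its start-site peak was higher too (0.41 ± 0.12, 0.0101; lost without S8 or S10, at 0.107 and 0.253). Rara was higher by 0.27 ± 0.06 (0.00332) and Rarg by 0.27 ± 0.07 (0.0138; lost without S8 or S9, at 0.0760 and 0.137). Pgr was lower with forskolin, at 16.9 and 12.2 CPM, against 24.6 and 21.8 with rosiglitazone (−0.66 ± 0.15, adjusted p = 0.00410; 0.0826 without S9).

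Single peaks separated the agents further. The far Rora peak had 5.84 and 4.04 CPM with forskolin, against 0.895 and 1.48 with rosiglitazone (2.05 ± 0.33, adjusted p = 1.11e-06). A Thrb peak at chr14:17903231-17903421 had 4.01 and 4.35 CPM with forskolin, against 1.17 and 1.48 with rosiglitazone (1.64 ± 0.33, adjusted p = 1.01e-04). In the other direction, the Esr1 peak at chr10:4694285-4694834 had 1.53 and 2.37 CPM with forskolin, against 7.09 and 6.42 with rosiglitazone (−1.81 ± 0.31, adjusted p = 4.51e-06). The Nr6a1 peak between its starts was lower with forskolin (−1.11 ± 0.22, 5.52e-05), as were a Rora peak at chr9:69043995-69044962 (−1.32 ± 0.26, 6.67e-05) and the Pgr peak (−1.07 ± 0.25, 7.91e-04). Between 3 days and 4 hours of forskolin, 18 member peaks were higher and 21 lower at 3 days (10.4%, where 11.1% of all peaks were, 4.38% higher and 6.75% lower), and 3 sums were higher and 2 lower (8.7% of all genes called, 3.66% higher and 5.04% lower). Among these sums Rarg was higher by 0.32 ± 0.07 (adjusted p = 0.00761) and Rara by 0.21 ± 0.06 (0.0305). With gene-end or start-site peaks alone neither was called, and DESeq2 did not call Rara. Fitting those 2 groups alone left 1 of the 5, that of Rarg.

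Genes that work with these receptors were read from lists, by their summed peaks, which describe accessibility near a gene and not its expression. The lists overlap in part (Klf9 is in both the glucocorticoid and the thyroid list). Of 7 vitamin D genes, 3 were higher at 4 hours, where 12.1% of all genes were called higher and 23.2% lower, with a median difference of 0.22 where the median of all genes was −0.12. Cyp24a1, which degrades active vitamin D and is a classic VDR target, averaged 21.6 CPM at 4 hours, against 9.74 in controls (1.13 ± 0.16, adjusted p = 2.15e-05). Gc, the vitamin D binding protein, was higher by 0.70 ± 0.11 (7.64e-05) and Spp1, osteopontin, by 0.22 ± 0.07 (0.0210). The same 3 genes were called higher at 1 day, and Cyp24a1 (0.91 ± 0.17, adjusted p = 0.00113) and Gc at 3 days. Of all genes 9.34% were called higher at 1 day and 5.23% at 3 days. After rosiglitazone Cyp24a1 averaged 11.3 CPM, against 9.74 in controls, and was not called (adjusted p = 0.509). Of the 3 RXR genes, 2 were lower at 4 hours (23.2% of all genes were), Rxrg (−0.49 ± 0.09, adjusted p = 2.09e-04) and Rxrb (−0.47 ± 0.12, 0.00497), while Rxra had 203 CPM, against 208 in controls.

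Of 20 coregulator genes, 1 was higher and 3 lower at 4 hours, and 2 and 8 at 1 day, with a median of −0.10 at 4 hours. Of all genes 12.1% were higher and 23.2% lower at 4 hours, and 9.34% and 28.5% at 1 day. Ppargc1a, the PGC-1α coactivator of several receptors, averaged 304 CPM at 4 hours, against 230 in controls (0.40 ± 0.06, adjusted p = 3.26e-05), and was also higher at the other 2 times and after rosiglitazone (0.36 ± 0.06, 9.29e-04). Ep300 was lower at 4 hours (−0.34 ± 0.09, adjusted p = 0.00919). Of 16 glucocorticoid receptor targets, 4 were higher and 4 lower at 4 hours (12.1% and 23.2% of all genes), with a median of −0.03. Mt2, a metallothionein, was higher at 4 hours (0.79 ± 0.10, adjusted p = 6.43e-06), as was Ddit4 (0.40 ± 0.06, 4.93e-05), and Pik3r1 was lower (−0.34 ± 0.07, 5.75e-04). Of 11 LXR targets tested, 1 was higher and 5 lower at 4 hours (12.1% and 23.2% of all genes), with a median of −0.11. Apoe, a lipid carrier, averaged 5.69 CPM at 4 hours, against 12.6 in controls (−1.15 ± 0.19, adjusted p = 7.89e-05), and Srebf1, the lipogenic factor, was lower (−0.48 ± 0.08, 1.03e-04).

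Of 9 thyroid hormone genes tested, 1 was higher and 3 lower at 4 hours, where 12.1% and 23.2% of all genes were, with a median of −0.04. Ucp1, the brown fat uncoupling protein and a thyroid hormone target, averaged 6.85 CPM at 4 hours, against 4.04 in controls (0.77 ± 0.23, adjusted p = 0.0129), and 8.20 CPM after rosiglitazone (1.03 ± 0.22, 0.00704). Thrsp and Klf9 were lower at 4 hours, by −0.53 ± 0.12 (0.00210) and −0.29 ± 0.06 (8.73e-04). Of 15 retinoid genes (median −0.01) 1 was higher and 3 lower at 4 hours (12.1% and 23.2% of all genes), among them Stra6, the retinol uptake receptor (−0.62 ± 0.10, adjusted p = 1.26e-04). After rosiglitazone Aldh1a1, which makes retinoic acid, was the one called (0.35 ± 0.11, 0.0439), where 7.52% of all genes were. Of 11 targets of the estrogen-related receptors, 4 were lower at 4 hours, 6 at 1 day, then 1 at 3 days, where 23.2%, 28.5% and 10.4% of all genes were lower, with medians of −0.15, −0.25 and −0.09 where all genes had −0.12, −0.13 and −0.10. Pdk4, which spares glucose, was higher after rosiglitazone (0.40 ± 0.07, adjusted p = 9.26e-04).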

How the data were processed

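The deposited table held raw read counts per peak, which the authors made for 122984 peaks in 10 libraries. Per the submitters' processing notes, Bowtie2, deepTools, fastp, featureCounts, MACS2, Picard and SAMtools were used on GRCm38 (mm10); their versions and settings are not given in the sources used here, and nothing says whether peaks were called on pooled libraries.

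From the counts, edgeR 4.0.16 (R 4.3.3) was fitted to all 10 libraries at once, with TMM scaling, its filter on low counts and the robust quasi-likelihood test, over 118954 peaks and over 17080 summed genes. P-values were adjusted by Benjamini-Hochberg over each whole table, with calls at 0.05, and the SE is the size of the log2 fold change divided by the square root of F. Column names carried the group of a library. A gene-end peak lies within 1 kb of an annotated gene end, and a start-site peak overlaps a RefSeq window (GRCm38.p6). A peak held by 2 gene bodies counted for both, which touched 3 member peaks. Distances run to the nearest RefSeq window start of the gene; exons and introns were not annotated here. All members were covered by their sums, with full statistics for called ones. Named peaks were, per comparison and direction, the 5 largest called changes among member peaks at or above the median level of 2.72 CPM, at most 1 per member. Not every one of them is described in the text. A peak's level here was its mean over all 10 libraries, so one low in controls could pass through the groups where it was high. Start-site peaks were described as a class, and other peaks outside this rule, the upstream Vdr peak among them, were picked with their values in view and were not followed through the alternatives. The fits were run on simulated data with known fold changes, and the outcome is not reported here. The simulation used a single fixed spread for all peaks and another for all genes. It changed only a small set of features above a count floor. It therefore cannot show how the fits do on weak peaks or under broad shifts. The alternatives were other scalings (DESeq2 size factors, library size alone, trended offsets by loess on the mean level), DESeq2 1.42.0, no filter on low counts, other assignments of peaks (within 10 kb, all annotated genes, gene-end peaks only, start-site peaks only, the last added after seeing the data), a fit of the 2 groups alone, and leaving out each library. The members and lists were chosen with earlier results of these data known. Intervals cover counting error only.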

Additional observations from a re-analysis of the deposited data

How the results depend on the processing

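A call counted as kept under an alternative only where the direction was the same and the adjusted p was below 0.05. Of 56 called gene results 11 were called under every alternative, and of 81 called peak results 41 were. The 81 were the named peaks, taken for their large changes, and the called start-site peaks. Other called member peaks were not followed, so the 41 do not describe all peak calls. No paired analysis was possible because the columns carry no replicate numbers. With DESeq2 the member peaks called were 48 at 1 day, 27 at 3 days, 10 after rosiglitazone, 46 for forskolin against rosiglitazone and 19 for 3 days against 4 hours, where edgeR called 77, 47, 27, 72 and 39. Over all start-site peaks DESeq2 also called fewer lower, 3433 at 1 day and 569 at 3 days, where edgeR called 3805 and 815. With gene-end peaks alone the called sums were 6 at 4 hours, 0 at 3 days, 1 after rosiglitazone, and 0 for both comparisons of 3 days with another treated group. With start-site peaks alone, an alternative chosen after seeing the data, they were 6, 0, 0, 0 and 0. Fitting only the 2 groups compared left 2 called sums at 3 days and 1 for 3 days against 4 hours. Leaving out each library in turn gave 64 to 109 called peaks at 4 hours, 39 to 83 at 1 day, 26 to 45 at 3 days, 9 to 40 after rosiglitazone, 48 to 77 for forskolin against rosiglitazone and 15 to 41 for 3 days against 4 hours. Called sums ranged over 8 to 17, 9 to 20, 2 to 14, 0 to 7, 3 to 8 and 0 to 7 in the same order. An arm left with 1 library was assumed to vary like the others. Shares of all peaks and genes under these settings are not set beside the member counts. The counts therefore do not describe the family alone.

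Some sums turned direction under another choice of peaks, and the cause was not tested. With gene-end and then start-site peaks alone, Esrrg gave −0.51 and −0.29 at 4 hours, −0.56 and −0.26 at 1 day, then −0.27 and −0.17 at 3 days. Rorb gave −0.092 and −0.13 at 4 hours, and 0.029 with gene-end peaks for 3 days against 4 hours. Vdr gave −0.011 and −0.072 at 4 hours and −0.081 and −0.16 at 1 day. Nr1h4 gave 0.86 at 3 days with gene-end peaks. With non-coding genes in the assignment Hnf4a gave −0.018 at 4 hours and 0.13 for 3 days against 4 hours. A Rarg peak at chr15:102246132-102248144 gave 0.022 at 1 day under trended offsets. With 2 libraries a group, small differences at peaks of a few CPM were not detectable at this depth.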
